A study of Mus musculus with 4 samples.

Results

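The genes of the fibrinogen chains (Fga, Fgb, Fgg), of the clotting factors prothrombin, V, VII and X (F2, F5, F7, F10), of plasminogen (Plg), antithrombin (Serpinc1) and complement factor I (Cfi) were followed in embryos without nucleoredoxin. Members were chosen by the gene name printed on the array. These 10 genes of 27670 on the array carried 12 of its 41174 gene probes, and Plg and Serpinc1 had 2 probes each. Whole mouse embryos of the C57BL/6J strain were compared at the embryonic days E9.5 and E11.5, with the genotypes NRX -/- (Nxn-null) and NRX +/+ (wild type). The sample titles write KD for the Nxn-null embryos, the tissue is given only as embryos, and how many embryos went into an RNA is not stated in the labels. Each stage was measured on 2 two-colour Agilent whole mouse genome arrays, on which Nxn-null and wild-type RNA of that stage were hybridised together. Replicate 1 had the Nxn-null RNA in the dye Cy5 and replicate 2 had it in Cy3. Whether the arrays of a stage hold separate extracts is not labelled. The p-values of ratios and of their differences between stages rest on the spread between arrays, which may be technical. They compare RNAs rather than genotypes. That spread is what a fitted term for the dye leaves over, pooled with that of all tested probes, and is not the SD printed beside a mean. Tests of what the stages or the genotypes share take those as replicates instead.

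Fibrinogen is a plasma protein built from alpha, beta and gamma chains, and thrombin, the active form of prothrombin, cuts it into fibrin, the mesh of a clot. Factor X with its cofactor factor V activates prothrombin, factor VII starts the cascade together with tissue factor, antithrombin inhibits thrombin and factor X, and plasmin, made from plasminogen, dissolves fibrin. Complement factor I is a protease that inactivates complement fragments C3b and C4b. In adults the liver makes most of these proteins, and in the early mouse embryo the visceral endoderm of the yolk sac is a further source of plasma proteins, before the fetal liver takes over. Nucleoredoxin, the product of Nxn, is a thioredoxin-related protein known to bind Dishevelled, a mediator of Wnt signalling.

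The ratio used throughout is log2 of Nxn-null over wild type after background correction and loess on each array, with negative values for a lower signal in the Nxn-null RNA. A level is the log2 intensity of a single colour channel after normalization between arrays, and it is compared only within a probe. Nxn itself was lower on all 4 arrays, where its brighter probe had ratios of -1.04 and -0.93 on the E9.5 arrays, and of -1.24 and -1.42 on the E11.5 arrays. Between 48.2% and 70.3% of the gene probes were well above background in a channel, with the Cy5 channel passing more often on each array, and 0 to 7 probes per array were saturated. Across the tested probes the dye-swapped ratios had a correlation of 0.43 for the E9.5 arrays and 0.24 for the E11.5 arrays, against 0.35 and 0.38 between arrays of the same dye orientation from different stages, and a dye term was fitted. These correlations run across probes that are not independent and serve as a description.

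At E9.5 most of the member genes were lower in the Nxn-null embryos. Fgg, Cfi, F2 and Fgb had the lowest mean ratios, between -2.76 and -1.43, followed by Plg and F10 at -1.04 each. Of the 9 member genes tested, 8 were lower and 0 higher (limma on all 24979 tested probes, Benjamini-Hochberg adjusted p under 0.05), whereas 13.5% of the tested probes were lower and 8.82% higher by the same rule. The size of the decrease was at least 2-fold in 6 of the 9, against 0.617% of tested probes. Both Nxn-null levels lay below both wild-type levels in 8 of the 9, as they did for 21.8% of tested probes. The median ratio of the members was -1.04 beside 0.0041 over all tested probes. In whole-embryo RNA, fewer cells of a type and less RNA per cell cannot be told apart. F5, the tenth gene, was not tested because its signal passed background in none of the 8 channels, and Fga was tested only because its wild-type signal at E9.5 passed, so these counts describe the members that could be measured.

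**Figure D1:**
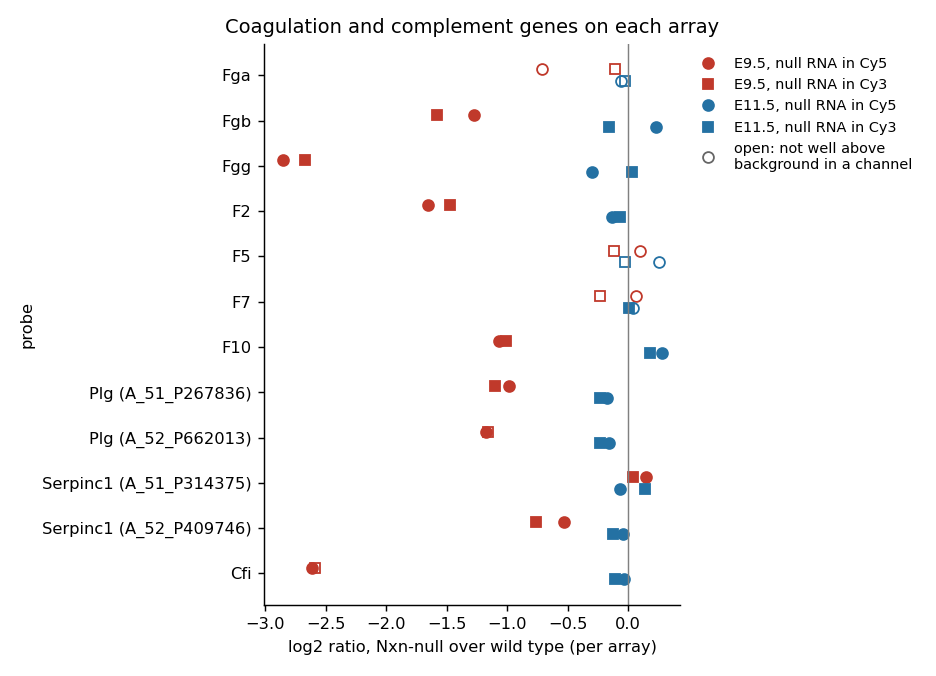
Log2 ratio of Nxn-null over wild type for each member probe on each array, with circles where the Nxn-null RNA was in Cy5, squares where it was in Cy3, red for E9.5, blue for E11.5, and open symbols where a channel was not well above background. The red points of Fgg, Cfi, F2, Fgb, Plg and F10 lie near or below -1, and all blue points lie between -0.30 and 0.28.

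The fibrinogen chains are assembled together, and all of their genes were lower at E9.5, to different extents. Fgg, the gamma chain, had levels of 11.67 and 11.78 in the wild type and of 8.82 and 9.11 in the Nxn-null RNA, with ratios of -2.85 and -2.67. The groups lay far apart, and the mean of -2.76 ± 0.13 (SD, n = 2 arrays) is a 6.79-fold decrease to 14.7% of the wild-type signal (limma adjusted p = 2.36e-17). Fgb, the beta chain, had levels of 11.24 and 11.46 against 9.97 and 9.88, and ratios of -1.27 and -1.58. Its groups did not overlap either, and the mean of -1.43 ± 0.22 (SD, n = 2 arrays) is a 2.69-fold decrease to 37.1% of the wild type (limma adjusted p = 1.11e-12).

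Fga, the alpha chain, was measured close to the background. Its levels were 7.39 and 7.47 in the wild type and 6.68 and 7.36 in the Nxn-null RNA, and the Nxn-null signal was not well above background on either array. Its ratios were -0.71 and -0.11, and the decrease in the mean was therefore only bounded, at least 1.33-fold (limma adjusted p = 0.000568). This bound equals the measured fold of the mean, and the ratio of -0.11 alone is a smaller decrease. A bound sets the mean level of the measured group against, on each array, the higher of the dim probe's own level and the lowest level among probes well above background. The Fga call rested on the dye term, which fits with an array left out do not carry. Its limma adjusted p was 0.338 without that term, 0.786 without replicate 1 of E9.5, 0.0634 without replicate 2 of E9.5, and 0.379 without either array of E11.5. The fibrinogen probes differ in brightness and response, so their unequal ratios do not rank the transcripts.

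The fibrinogen genes adjoin each other on mouse chromosome 3, and the 250 bases before each annotated start are printed to compare the proximal promoters of genes that were lower together. Sequences are from RefSeq on GRCm38.p6, 5′ to 3′ on the strand of the gene, at chr3:83025903-83026152 (plus strand) for Fga, chr3:83049864-83050113 (minus strand) for Fgb and chr3:83007474-83007723 (plus strand) for Fgg. Capitals mark matches on either strand to the motif TTGCNNAA of the C/EBP family of transcription factors.
Fga: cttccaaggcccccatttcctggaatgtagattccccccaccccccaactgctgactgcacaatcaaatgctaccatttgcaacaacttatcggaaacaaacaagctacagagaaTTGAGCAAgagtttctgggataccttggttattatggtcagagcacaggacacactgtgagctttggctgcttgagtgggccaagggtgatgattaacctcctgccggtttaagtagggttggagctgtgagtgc
Fgb: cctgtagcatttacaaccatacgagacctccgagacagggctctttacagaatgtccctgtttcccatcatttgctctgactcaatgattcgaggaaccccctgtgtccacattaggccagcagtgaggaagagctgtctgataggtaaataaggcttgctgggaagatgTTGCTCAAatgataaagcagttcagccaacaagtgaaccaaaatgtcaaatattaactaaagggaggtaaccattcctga
Fgg: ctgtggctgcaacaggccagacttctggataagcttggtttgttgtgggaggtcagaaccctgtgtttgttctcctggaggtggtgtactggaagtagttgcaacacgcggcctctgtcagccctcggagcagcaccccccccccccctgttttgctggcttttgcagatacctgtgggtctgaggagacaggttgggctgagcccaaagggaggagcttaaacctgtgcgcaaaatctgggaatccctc
Fga held the C/EBP motif 135 to 128 bases before the start on the minus strand, and Fgb held it 80 to 73 bases before the start on the plus strand. Fgg, which had the lowest ratio, held no match. Upstream windows were matched for 8 of the 10 members, all but Plg and Cfi, and Fga and Fgb were the only windows of the 8 with a match. Of 32851 upstream windows of the same length, 9.56% held the C/EBP motif. The HNF4 motif CAAAGTCC (1.2% of windows), the GATA motif AGATAA (9.99%) and the FOXA motif TGTTTAC (3.17%), searched on both strands, had no match in the 8 windows. No other motif overlapped these matches, and a match is a run of letters, not a bound site.

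Among the clotting proteases, F2 and F10 were lower at E9.5 and F7 did not pass the test. F2, which encodes prothrombin, had levels of 9.45 and 9.69 in the wild type and of 7.80 and 8.21 in the Nxn-null RNA. Its ratios of -1.65 and -1.48 gave a mean of -1.56 ± 0.13 (SD, n = 2 arrays), a 2.96-fold decrease to 33.8% of the wild type (limma adjusted p = 2.68e-13). F10, which encodes factor X, had levels of 9.57 and 9.58 against 8.501 and 8.57. Its ratios of -1.06 and -1.01 lay close together around -1.04 ± 0.04 (SD, n = 2 arrays), a 2.05-fold decrease (limma adjusted p = 2.05e-10). In F2 and in F10 the wild-type and Nxn-null levels did not overlap.

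F7, which encodes factor VII, was dim, with levels between 7.28 and 7.56 in all 8 channels and well above background in 5 of them. Its E9.5 ratios of 0.07 and -0.23 had opposite signs (mean -0.08 ± 0.21, SD, n = 2 arrays, limma adjusted p = 0.425). F5, which encodes factor V, had ratios of 0.10 and -0.12 at E9.5 and of 0.25 and -0.02 at E11.5. Its levels lay between 6.76 and 7.08 and were not well above background in any channel, so a change in F5 was not measurable on these arrays.

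Plg, Serpinc1 and Cfi stand for fibrinolysis, inhibition of clotting and control of complement, and each had a probe that was lower at E9.5. The brighter Plg probe, A_51_P267836, had levels of 8.995 and 8.97 in the wild type and of 8.01 and 7.87 in the Nxn-null RNA, and ratios of -0.98 and -1.10. Its mean of -1.04 ± 0.08 (SD, n = 2 arrays) is a 2.06-fold decrease (limma adjusted p = 1.52e-10). The other Plg probe, A_52_P662013, had ratios of -1.18 and -1.16, a 2.25-fold decrease (limma adjusted p = 2.87e-11), although its Nxn-null signal was well above background on only 1 of 2 arrays, which leaves its size uncertain. The Plg probes thus moved the same way by a similar amount.

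The Serpinc1 probes did not. The brighter probe, A_52_P409746, had levels of 8.41 and 8.71 against 7.88 and 7.95, and ratios of -0.53 and -0.76. Its mean of -0.65 ± 0.16 (SD, n = 2 arrays) is a 1.56-fold decrease (limma adjusted p = 2.33e-07), and the call was lost without replicate 2 of E9.5 (limma adjusted p = 0.217). The dimmer probe, A_51_P314375, had ratios of 0.15 and 0.04 at E9.5 (mean 0.09, limma adjusted p = 0.364), with overlapping levels of 7.76 and 7.70 in the wild type and 7.91 and 7.74 in the Nxn-null RNA. A lower antithrombin signal therefore rests on 1 of its 2 probes.

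Cfi had the lowest mean ratio after Fgg. Its levels were 9.79 and 10.23 in the wild type and 7.18 and 7.64 in the Nxn-null RNA, far apart in both dye orientations. The ratios of -2.61 and -2.59 gave a mean of -2.60 ± 0.01 (SD, n = 2 arrays), a 6.07-fold decrease to 16.5% of the wild type (limma adjusted p = 5.08e-17). The Nxn-null signal of Cfi was well above background on only 1 of the 2 arrays, so the fold has no firm upper end.

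At E11.5 the members stood close to the wild type. Their median ratio was -0.07, and of the 9 tested genes 1 was higher and 0 lower, beside 3.17% of tested probes higher and 5.32% lower. Fgg had ratios of -0.30 and 0.03, Fgb of 0.23 and -0.16, F2 of -0.13 and -0.07, and Cfi of -0.04 and -0.11. Fgg and Fgb changed sign between the dye orientations, and none of these passed the test (limma adjusted p = 0.260, 0.823, 0.434 and 0.606). Fga had ratios of -0.06 and -0.03, F7 of 0.04 and 0.00, and the brighter Serpinc1 probe of -0.04 and -0.12 (limma adjusted p = 0.844, 0.915 and 0.561). No member was lower by at least 2-fold at E11.5, compared with 0.156% of tested probes.

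F10 was the member called higher at E11.5, with levels of 9.34 and 9.41 in the wild type and of 9.62 and 9.59 in the Nxn-null RNA. Its ratios of 0.28 and 0.18 amount to a 1.17-fold increase (mean 0.23 ± 0.07, SD, n = 2 arrays, limma adjusted p = 0.0299). The F10 call at E11.5 was lost without the dye term (limma adjusted p = 0.793) and with any single array left out, where the adjusted p was at least 0.900, as well as with a smaller normexp offset, the Feature Extraction log ratio, median centring or no filter on dim probes. Plg stood at -0.17 and -0.24 with its brighter probe and at -0.16 and -0.23 with the other (limma adjusted p = 0.0508 and 0.0647), just short of the threshold. Both Nxn-null levels lay below both wild-type levels in 4 of the 9 tested genes at E11.5, as they did in 16.1% of tested probes.

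The ratio differed between the stages in 8 of the 9 tested member genes, always with the higher ratio at E11.5, and 7.07% of tested probes had a difference in that direction and 4.63% in the other. The difference of the ratio, E11.5 minus E9.5, was 2.63 for Fgg, 2.53 for Cfi, 1.47 for Fgb, 1.46 for F2 and 1.27 for F10 (limma adjusted p = 3.27e-14, 4.45e-14, 2.84e-10, 3.15e-10 and 2.88e-09). It was 0.84 and 0.97 for the Plg probes, 0.56 for the brighter Serpinc1 probe and 0.37 for Fga (limma adjusted p = 1.11e-06, 1.34e-07, 0.000191 and 0.0331). F7 had a difference of 0.10 and the dimmer Serpinc1 probe one of -0.06, and neither passed (limma adjusted p = 0.570 and 0.783). The count of 8 fell to 5 without the dye term, without either array of E9.5, or without replicate 2 of E11.5, and to 3 without replicate 1 of E11.5, where Fgg, Cfi and F2 were still called.

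**Figure D2:**
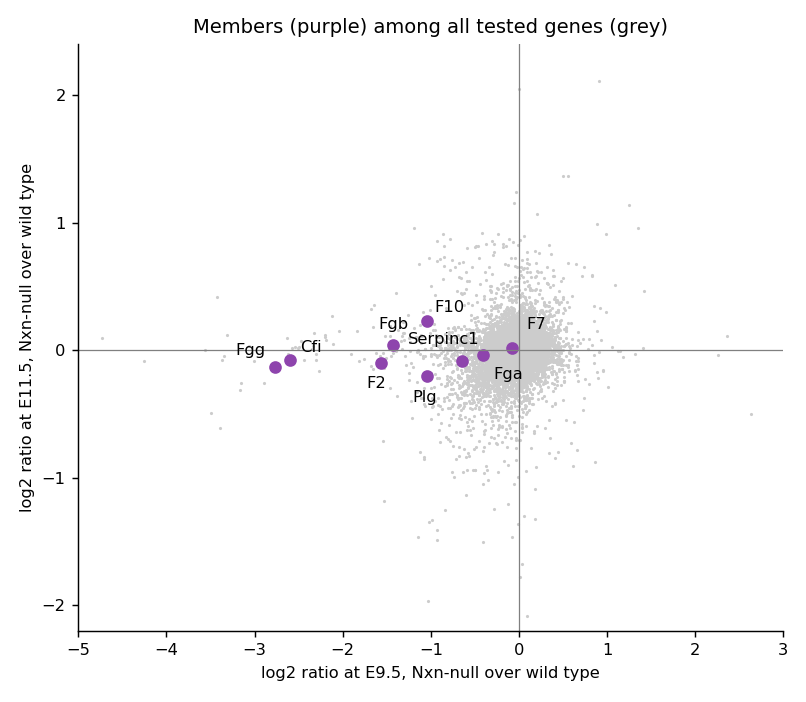
Mean log2 ratio of Nxn-null over wild type at E9.5 (horizontal axis) and E11.5 (vertical axis) for each tested gene by its brightest probe (grey) and for the 9 tested members (purple, named). Of 17154 genes, 4 lie outside the axes. The members spread from -2.76 to -0.08 along the E9.5 axis and from -0.20 to 0.23 along the E11.5 axis.

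A test of the ratio common to both stages called no member. That test treats the stages as the replicates, and it called 0 of 24979 probes over the whole table (limma lowest adjusted p = 0.342, with 1881 probes at an unadjusted p under 0.05). The shared ratios of the members ranged from -1.45 for Fgg to -0.03 for F7 among their brightest probes, with adjusted p between 0.651 and 0.910, and 1 member passed 0.05 before adjustment. Of the 9, 5 were lower on all 4 arrays, and so were 10.6% of tested probes.

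The levels showed where each genotype stood at the later stage. In the wild type, signals of Fgg and Cfi were lower at E11.5 than at E9.5, from a mean level of 11.73 to 10.50 for Fgg (a 2.35-fold decrease) and from 10.01 to 8.38 for Cfi (3.09-fold). Fgb went from 11.35 to 10.95 in the same direction. In the Nxn-null embryos the same genes went the opposite way, Fgg from 8.96 to 10.36 (2.64-fold higher), Cfi from 7.41 to 8.31 (1.87-fold) and Fgb from 9.92 to 10.99 (2.09-fold). In mean level the genotypes thus met at E11.5 from both sides for these 3 genes. Level changes within a genotype were not tested for any member, and each stage was measured on its own arrays. The Nxn-null signal of Cfi at E9.5 passed background on only 1 of 2 arrays.

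For F2, Plg and Serpinc1 the signal was higher at E11.5 in both genotypes. F2 went from 9.57 to 9.92 in the wild type and from 8.004 to 9.82 in the Nxn-null embryos, a 3.51-fold change. The brighter Plg probe went from 8.98 to 9.77 in the wild type and from 7.94 to 9.57 in the Nxn-null embryos, and the brighter Serpinc1 probe from 8.56 to 9.19 and from 7.91 to 9.11. F10 changed little in the wild type, from 9.57 to 9.38, and went from 8.54 to 9.60 in the Nxn-null embryos, a 2.10-fold change.

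A test of the level change shared by the genotypes, which takes the genotypes as replicates, called 2 of the 9 genes higher and 0 lower, beside 19.5% and 22.9% of tested probes. These were Plg (1.21 on the log2 scale, limma adjusted p = 0.0200) and Serpinc1 (0.91, limma adjusted p = 0.0174), by their brighter probes. F2 had a mean change of 1.08 that did not pass (limma adjusted p = 0.0850). Its p-values are too small, because whatever moved both colours of an array alike is not part of its error.

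**Figure D3:**
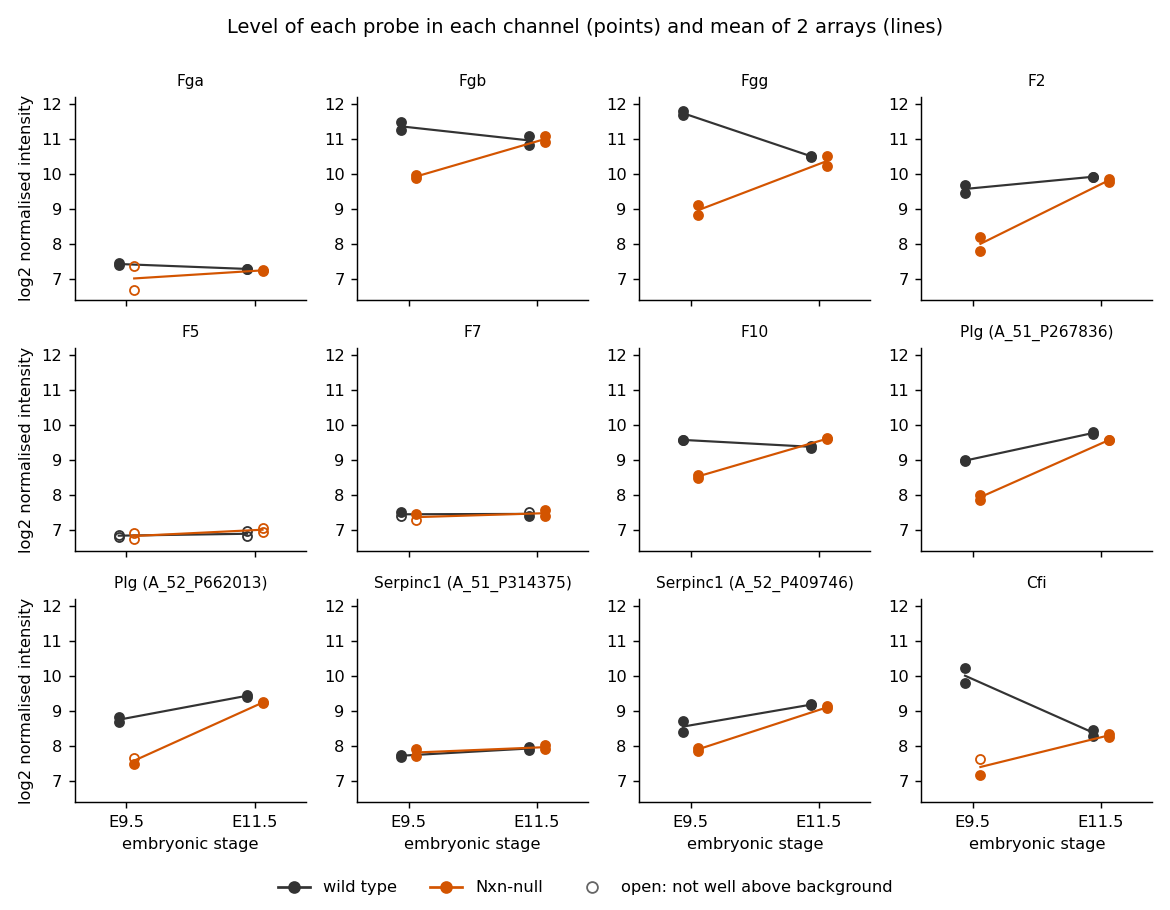
Log2 normalised intensity of each member probe in each channel at E9.5 and E11.5, in the wild type (black) and the Nxn-null embryos (orange), with open points not well above background and lines joining the means of the 2 arrays of a group. The lines of Fgg, Cfi, Fgb, F2, F10 and Plg lie apart at E9.5 and close together at E11.5, and those of F5 and F7 stay dim at both stages.

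Genes next to the members on the chromosome were compared to see whether the lower signal extended along it. Plrg1, which lies beside Fgb, had a mean ratio of 0.03 at E9.5 (limma adjusted p = 0.823). Gar1 and Pla2g12a, on either side of Cfi, had 0.21 and -0.02 (limma adjusted p = 0.0195 and 0.897), and Map3k4 beside Plg had 0.05 (limma adjusted p = 0.646). F7, F10 and Proz, which encodes protein Z, the cofactor of an inhibitor of activated factor X, adjoin each other on chromosome 8 and had unequal ratios of -0.08, -1.04 and -0.31. None of these outer neighbours was lower, apart from Proz (limma adjusted p = 0.00263). Lrat beside Fgg, Slc22a3 beside Plg, Zfp408 beside F2 and Zbtb37 beside Serpinc1 had no tested probe, so those sides were not measured.

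The 6 genes whose 4 array ratios lay nearest to the mean of the fibrinogen genes were Csrp3, Cox6a2, Apoa2, Ttn, Misp3 and Slc7a9, at Euclidean distances of 0.141 to 0.248 on the log2 scale among 17145 candidates. The fibrinogen mean was -1.61 and -1.46 on the E9.5 arrays and -0.04 and -0.05 on the E11.5 arrays. Apoa2, an apolipoprotein, had -1.64 and -1.31 followed by -0.02 and 0.03. Csrp3, a muscle LIM protein, had -1.74 and -1.49 followed by -0.03 and -0.01, and Ttn, the giant sarcomere protein titin, had -1.51 and -1.55 followed by -0.12 and -0.16. With 4 arrays the likeness says only that these genes had a decrease of the size of that mean at E9.5 and lacked it at E11.5. The mean joins E9.5 ratios from -0.41 for Fga to -2.76 for Fgg, so it does not stand for each fibrinogen gene.

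Other genes of clotting and fibrinolysis were lower in some cases and higher in others. Of 37 listed genes 29 were tested, 10 were lower and 3 higher at E9.5, and their median ratio was -0.07. Over all tested probes 13.5% were lower and 8.82% higher. With median centring 4 of the list were lower and 0 higher, and without the dye term 4 and 0. The lowest were Kng1, the kininogen precursor, whose Nxn-null signal failed the background test (at least 2.22-fold lower, limma adjusted p = 9.72e-11), Proc, the anticoagulant protein C (-0.84 ± 0.23, SD, n = 2 arrays, limma adjusted p = 4.04e-09), Serpind1, heparin cofactor II (-0.77 ± 0.02, limma adjusted p = 1.54e-08), and Serpinf2, the plasmin inhibitor (-0.66 ± 0.04, limma adjusted p = 1.77e-07). Procr, the endothelial receptor of protein C (0.42), A2m, alpha-2-macroglobulin (0.32), and Cpb2, which protects fibrin from plasmin (0.31), were higher. At E11.5, 0 were lower and 2 higher, F12, the contact factor XII (0.26, limma adjusted p = 0.0105), and F8, the cofactor VIII, whose ratios of 1.16 and 0.06 disagreed. Over all tested probes 5.32% were lower and 3.17% higher at that stage. The E9.5 counts fell to between 2 and 4 lower and 0 higher when any single array was left out, and the E11.5 count to 0, as it did without the dye term, with median centring and with the Feature Extraction log ratio.

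Of 39 other complement genes 25 were tested, and 9 were lower and 2 higher at E9.5, with a median of -0.08. Over all tested probes 13.5% were lower and 8.82% higher. With median centring 4 of the list were lower and 0 higher, and without the dye term 3 and 0. Mbl2, a mannose-binding lectin that starts the lectin pathway, had -2.34 ± 0.12, and Cfb, the protease of the alternative pathway, had -1.47 ± 0.04 (SD, n = 2 arrays; limma adjusted p = 2.48e-16 and 1.34e-12). The Nxn-null signal of both passed background on only 1 of 2 arrays. C2, the protease of the classical pathway, had -0.86 and Cd59a, an inhibitor of the membrane attack complex, -0.72. Vtn, vitronectin (0.42), and C1qa, a chain of C1q (at least 1.197-fold), were higher. The C1qa signal failed the background test in the wild type and passed it on only 1 Nxn-null array, with ratios of 0.06 and 0.45. At E11.5 Cd59a (-0.34) and Hc, complement component C5 (-0.29), were lower and 0 genes higher, beside 5.32% and 3.17% of tested probes. Cfb stood at 0.11. Mbl2 was well above background in no E11.5 channel, so its ratio of 0.03 there does not measure the gene. With any single array left out, 3 or 4 were lower at E9.5 and 0 higher. The E11.5 count of 2 fell to 0 with any array left out, without the dye term, with median centring and with the Feature Extraction log ratio.

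Transcription factors of endoderm and liver, among them regulators of plasma protein genes, were lower in 7 and higher in 1 of the 14 tested of 16 listed at E9.5, with a median of -0.18. Over all tested probes 13.5% were lower and 8.82% higher. With median centring 3 of the list were lower and 1 higher, and without the dye term 2 and 0. Cebpb had -0.67 ± 0.38 and Gata6 -0.58 ± 0.07 (SD, n = 2 arrays; limma adjusted p = 1.62e-07 and 8.22e-07). Foxa3 failed the background test in the Nxn-null RNA (at least 1.32-fold lower). Nr5a2 was higher at 0.53. Hnf4a (0.05) and Cebpa (-0.05) did not pass the test (limma adjusted p = 0.659 and 0.685). At E11.5 none of the 14 was called by limma in either direction. The E9.5 counts fell to 1 or 2 lower and 0 higher when any single array was left out.

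Marker genes of the yolk sac visceral endoderm moved together with the members. Of 18 listed and 17 tested, 16 were lower and 0 higher at E9.5, all but Cyp26a1, with a median ratio of -2.89. Over all tested probes 13.5% were lower and 8.82% higher. All 17 were well above background on both wild-type arrays and 11 on both Nxn-null arrays, so the others could enter through the wild type alone, and 11 were lower when both genotypes had to pass. Cubn, the endocytic receptor cubilin of this epithelium, had ratios of -3.94 and -4.57, and Amn, its partner amnionless, had -3.03 and -3.11. The summed linear level of the list was 172117 and 173933 in the wild type and 22485 and 18913 in the Nxn-null RNA at E9.5, and every marker on the array was well above background in at least 1 channel. At E11.5 its median was -0.06, and 4 of 17 were lower (Apob, Apoc2, Apoa1 and Trf), beside 5.32% of tested probes. The summed levels were then 81376 and 90143 in the wild type and 81323 and 81764 in the Nxn-null RNA. With any single array left out, 14 or 15 were lower at E9.5. The E11.5 count of 4 fell to 0 with any array left out, without the dye term or on the Feature Extraction log ratio, and to 1 with median centring. How far the members' ratios follow the amount of this tissue in each RNA was not tested. Some of these markers, such as Afp and Ttr, are also made by fetal liver.

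Markers of the fetal liver had a median ratio near 0 at E9.5. At that stage 2 of 10 tested (of 13 listed) were lower and 0 higher, beside 13.5% of tested probes lower, with a median of 0.06. Summed levels were 40587 and 40147 in the wild type and 38983 and 41985 in the Nxn-null RNA, and such linear sums weigh the brightest genes most. Of the 12 on the array, 9 were well above background on both wild-type arrays of E9.5 and 6 on both Nxn-null arrays. Hpx, the heme carrier hemopexin, was among the lower genes (-0.21 ± 0.04, SD, n = 2 arrays, limma adjusted p = 0.0266). Alb, serum albumin, had ratios of 0.12 and 0.07 at E9.5 and of -0.47 and -0.50 at E11.5, and Ahsg, the plasma protein fetuin-A, had -0.04 and -0.03 followed by -0.79 and -0.94. Both passed the test at E11.5 (limma adjusted p = 1.89e-05 and 1.10e-08). Summed levels of the list at E11.5 were 56542 and 54859 in the wild type and 52644 and 51417 in the Nxn-null RNA. Of the 10 tested, 3 were lower at E11.5, beside 5.32% of tested probes. That count fell to 1 without the dye term, with median centring or without either E9.5 array, and to 0 without either E11.5 array and with the Feature Extraction log ratio. At E9.5, 1 was lower with any array left out.

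**Figure D4:**
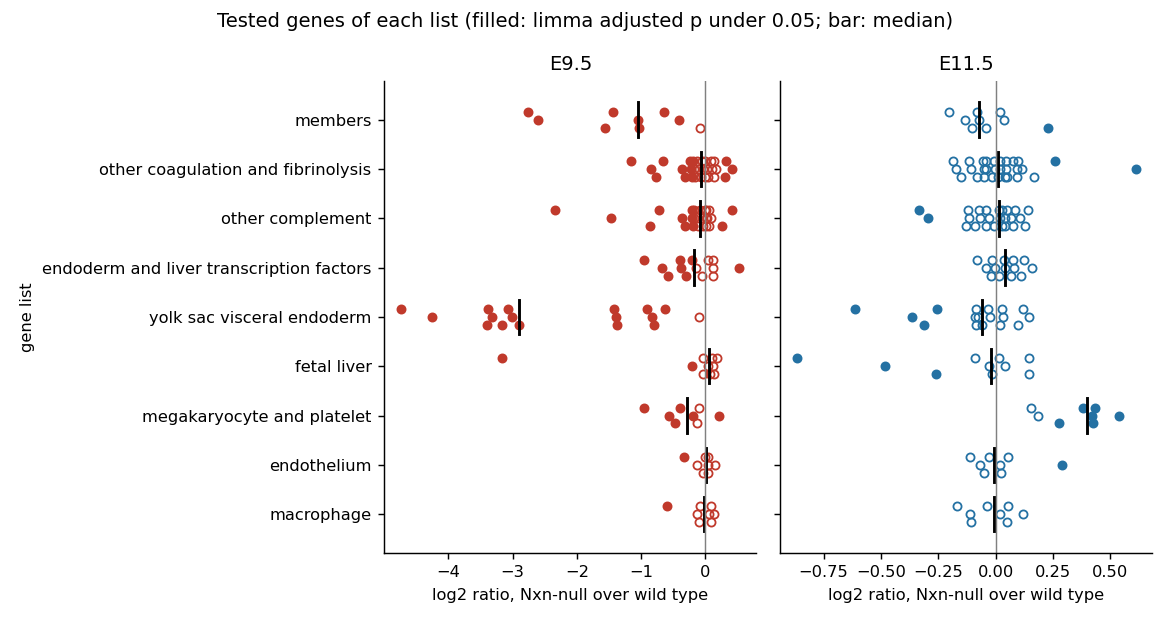
Mean log2 ratio of Nxn-null over wild type at E9.5 (left) and E11.5 (right, on a narrower axis) for the tested genes of the members and 8 other lists, with a point for each gene, filled where the limma adjusted p was under 0.05, and a bar at the list median. The members and the yolk sac visceral endoderm markers have the lowest medians at E9.5, -1.04 and -2.89, and medians of -0.07 and -0.06 at E11.5.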

How the data were processed

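Gene expression was measured in Nxn-null and wild-type mouse embryos on 4 two-colour arrays on 1 slide. Per the labels' protocols, total RNA was amplified linearly and labelled with Cy3 or Cy5. The deposited scanner files hold spot intensity per channel with its local background, and a log10 ratio of the processed signals, per the file headers, which name Agilent Feature Extraction 9.1.3.1, whereas the submitters' processing notes name 9.5.3.1. The deposited value table was equal to that log10 ratio, turned to Nxn-null over wild type, within 0.0001 for at least 99.995% of 40929 probes. Its column medians were -0.0136 and 0.0408 for the E9.5 arrays and -0.0347 and 0.0210 for the E11.5 arrays.

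From the deposited intensity, ratios were made by normexp (offset 50) and loess with controls at weight 0, and levels by Aquantile, in limma 3.58.1 under R 4.3.3 (jsonlite 2.0.0, and the data.table package, version 1.17.8). Figures used matplotlib 3.10.9 and Python 3.11.15. Outlier-marked probes (302) were left out. Of 41174 gene probes, 24979 were tested, those that Feature Extraction called well above background on both arrays of some stage in either genotype, and the brightest probe stood for each of 17154 genes. The ratio fit had a term for each stage and for dye (1 residual and 18.2 prior degrees of freedom). Shared ratios and level changes were fitted on 2 stage or genotype averages. P-values were adjusted by Benjamini-Hochberg at 0.05 over all tested probes, and the script was tested on simulated data. Gene names were updated from RefSeq (GRCm38.p6), with 22951 probes matched by accession, 6659 by symbol, 3109 by older symbol and 8455 kept as in the files.

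The members and gene lists were chosen with earlier results of these data known. Text names all members, up to 4 called genes of each list per direction and stage with the largest ratio (list genes that a comparison turns on are named besides, chosen after their values were seen), and the 6 genes nearest to the fibrinogen mean. Alternatives were the offset, the Feature Extraction log ratio, median centring, quantile normalization of levels, the filter on dim probes, the brightest probe only, no dye term, and leaving out each array. Protein sequences were not used here, and some genes and a motif that these rules cover are not reported here.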

Additional observations from a re-analysis of the deposited data

Results flagged for a closer look

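The ratio of Nxn-null over wild type differed between E9.5 and E11.5, by limma's test of the difference itself, for 9 of the 11 member probes tested. All were higher at E11.5, as were 7.07% of all tested probes, while 4.63% were lower. The difference of the log2 ratio, E11.5 minus E9.5, was 0.37 for Fga, 1.47 for Fgb, 2.63 for Fgg, 1.46 for F2, 1.27 for F10, 0.84 and 0.97 for the Plg probes A_51_P267836 and A_52_P662013, 0.56 for Serpinc1 A_52_P409746 and 2.53 for Cfi. Each of these probes had a lower ratio on both arrays of E9.5 than on both arrays of E11.5, which follows in part from being picked by that test. Without replicate 1 of E11.5 the difference stayed past the threshold for Fgg, Cfi and F2, with the adjusted p of the other member probes at 0.0640 or higher.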

How the results depend on the processing

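The count of members lower at E9.5 lay between 6 and 8 under every setting run, and no member's called ratio changed sign. The 1 member called at E11.5 became 0 with a normexp offset of 10, with the Feature Extraction log ratio, with median centring, without the filter on dim probes, without the dye term and with any array left out (0 to 0), and 2 with both genotypes above background or the brightest probe only, where Plg joined as lower. The 8 differences between stages became 5 with the Feature Extraction log ratio and 5 without the dye term, and 3 to 5 with an array left out. Fits with an array left out carry no dye term. Members called for the level change numbered 2 in every setting run.

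Over all probes, the 5581 calls at E9.5 (60.5% lower) became 1536 with the Feature Extraction log ratio (75.3% lower), 919 with median centring (77.6%), 540 without the dye term (85.9%) and 340 to 567 with an array left out. The 2121 calls at E11.5 (62.7% lower) became 1323 with the offset of 10, 48 with the Feature Extraction log ratio (75.0%), 299 with median centring (46.2%), 50 without the dye term, and 17 to 216 with an array left out. The 2924 differences between stages (39.6% lower) became 302, 510 (20.8%) and 174 (21.8%) in these last 3 settings and 108 to 296 with an array left out, and the 10586 level changes became 6850 to 10348. The cause was not tested.

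Of the results of single member probes, 503 kept direction and side of the threshold, 42 fell below it, 2 passed it, and 16 that were never called changed sign. At E9.5 the Fga call was lost with the Feature Extraction log ratio, which gave -2.33 (adjusted p = 0.0989), as well as in the settings named above. The ratio pairs the genotypes within each array. Arrays could not be paired across the stages, because the labels give no replicate numbers. The accession-order numbers coincide with the dye orientation that the dye term takes up. The 4 arrays, 2 per stage, and signals near background limit Fga, F5 and F7 most.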

Other observations

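Genes of megakaryocytes and platelets, the cells that act with fibrin in a clot, had median ratios of opposite sign at the stages. Of 8 tested, 5 were lower and 1 higher at E9.5 (median ratio -0.29), where 13.5% of tested probes were lower and 8.82% higher. At E11.5, 0 were lower and 6 higher (median 0.40), where 5.32% of tested probes were lower and 3.17% higher. Pf4, the chemokine platelet factor 4, had ratios of -0.69 and -1.21 at E9.5 and of 0.70 and 0.16 at E11.5. Ppbp, the precursor of platelet basic protein, had -0.54 and -0.59 followed by 0.50 and 0.58, and Gp9, a subunit of the von Willebrand factor receptor, had -0.55 and -0.40 followed by 0.37 and 0.39. The ratio was higher at E11.5 than at E9.5 in 7 of the 8 (limma adjusted p under 0.05), beside 7.07% of tested probes. The 5 lower at E9.5 became 3 with the Feature Extraction log ratio, 2 with median centring and 1 without the dye term. The 6 higher at E11.5 became 0, 2 and 0 in the same settings. With any array left out, 0 or 1 of the 8 were lower at E9.5 and 0 were called at E11.5.

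Vwf, the von Willebrand factor gene of endothelium and platelets, was lower at E9.5 (-0.24 ± 0.04, SD, n = 2 arrays, limma adjusted p = 0.00898). It is among the 10 lower genes of the other clotting list, a count that fell to 4 without the dye term or with median centring. Of 8 endothelial markers 1 was lower and 0 higher at E9.5, a share near the 13.5% of tested probes that were lower. F3, which encodes tissue factor, had ratios of -0.01 and 0.17 at E9.5 (limma adjusted p = 0.399). Of 8 macrophage markers, 1 was likewise lower and 0 higher at E9.5, also near that share, and none was called by limma at E11.5. Of 8 decidua markers 6 were tested, and 2 were lower and 1 higher at E9.5, beside 13.5% and 8.82% of tested probes. Their median ratio was -0.007. Prl8a2, from this list, was at least 5.59-fold higher in the Nxn-null RNA at E9.5, with the wild-type signal failing the background test.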
